A study of Mus musculus with 8 samples.

Results

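The genes of the fibrous sheath and the outer dense fibres, the accessory structures of the sperm tail, were followed in RNA of mouse testis from the first wave of spermatogenesis to adulthood. The members were chosen by name as Akap3, Akap4, Fsip1, Fsip2, Ropn1, Ropn1l, Odf1, Odf2, Odf3 and Odf4. Of these 10 genes, 9 had values among the 23983 genes of the expression table, and Fsip2 was not analysed here. The study looked for regions of the sex chromosomes that become active after meiosis, and profiled testes at successive ages for that purpose. Pieces of whole testis of C57BL/6J mice came from day 12 (d12), day 16 (d16) and day 24 (d24) after birth and from adults, with 1 total RNA library per stage. The labels name no further allele or treatment for any stage and do not give the number of animals behind a library. The ChIP-seq samples for H3K27Ac were not analysed here.

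The tail of a mammalian sperm is built around the axoneme, the microtubule core that bends. In the midpiece and most of the principal piece, outer dense fibres run along the outside of the axonemal doublets and stiffen the tail. In the principal piece, the fibrous sheath surrounds the fibres with longitudinal columns and circumferential ribs, and it anchors signalling and glycolytic enzymes. Both structures are assembled in spermatids, the haploid cells that follow meiosis. In the juvenile testis, germ cells of the first wave reach each stage together, so that the ages sample successive cell types. RNA from a bulk testis does not show whether a low value comes from fewer cells of a type or from less RNA per cell, and these cannot be told apart here.

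The sequences upstream of the starts of 4 members are shown because they differ in what they share and in their content of CpG, the dinucleotide that is dense in many promoters of widely used genes. They are the 250 bases before an annotated start in the RefSeq annotation of GRCm38.p6, written 5′ to 3′ on the strand of the gene. The windows are chr6:126852848-126853097 (plus strand) for Akap3, chrX:7067265-7067514 (plus strand) for the upstream start of Akap4, chr16:34650961-34651210 (plus strand) for Ropn1 and chr15:31453690-31453939 (minus strand) for Ropn1l. Capitals mark the 20-base stretch common to Akap3 and Akap4, and every CG in Ropn1 and Ropn1l.
Akap3: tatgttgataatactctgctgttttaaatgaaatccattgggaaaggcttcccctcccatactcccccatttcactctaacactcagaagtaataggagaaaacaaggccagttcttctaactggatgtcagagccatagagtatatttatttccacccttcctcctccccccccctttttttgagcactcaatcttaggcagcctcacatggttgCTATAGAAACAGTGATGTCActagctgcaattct
Akap4: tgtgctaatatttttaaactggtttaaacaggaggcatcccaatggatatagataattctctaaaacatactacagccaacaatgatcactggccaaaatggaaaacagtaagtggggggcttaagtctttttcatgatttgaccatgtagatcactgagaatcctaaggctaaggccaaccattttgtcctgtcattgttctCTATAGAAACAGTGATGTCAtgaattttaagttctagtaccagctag
Ropn1: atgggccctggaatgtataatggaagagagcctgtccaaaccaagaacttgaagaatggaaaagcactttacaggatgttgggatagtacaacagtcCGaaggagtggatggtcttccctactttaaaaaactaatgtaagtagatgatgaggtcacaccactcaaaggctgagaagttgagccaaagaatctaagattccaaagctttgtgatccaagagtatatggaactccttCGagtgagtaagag
Ropn1l: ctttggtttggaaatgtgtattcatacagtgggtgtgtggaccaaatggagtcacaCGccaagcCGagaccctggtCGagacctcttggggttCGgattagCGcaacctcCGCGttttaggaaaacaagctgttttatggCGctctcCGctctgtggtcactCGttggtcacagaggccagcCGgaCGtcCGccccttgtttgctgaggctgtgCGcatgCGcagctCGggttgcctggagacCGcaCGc

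All levels below are FPKM, fragments scaled to transcript length and to the size of the library, which compare genes per length. The number of fragments behind a value was recovered from the deposited FPKM and the length of the RefSeq transcript. Implied fragments on genes were 9320607 at d12, then 9913038 at d16, 24966175 at d24 and 12733222 in the adult library. Intervals in parentheses are exact 95% intervals and cover counting error only. With 1 library per stage no test between stages and no standard deviation could be given, so that differences between animals are not in any interval. For a gene at 0, the limit is the FPKM of 3 fragments, and a ratio against it is a lower bound. The age series followed the labels, since the median over the 6 markers of pachytene spermatocytes stood at 0.415% of adult at d12, 18.6% at d16 and 99.7% at d24. The 6 markers of round spermatids had 0.436% at d16 and 41.1% at d24, and the 6 of elongating spermatids 0.00861% and 12.6%. Markers of other cells moved with age too. The median over the 6 Sertoli cell markers was 291% of adult at d12, 189% at d16 and 116% at d24, and their summed FPKM, most of it from Clu, lay between 461 and 792. The median was 614%, 366% and 152% for the 6 spermatogonial markers, 319.6%, 258% and 135% for the 2 smooth muscle markers and 34.2%, 21.5% and 29.1% for the 6 Leydig cell markers. Their part in the levels of the members was not tested. The 2 leukocyte markers summed to between 2.04 and 3.06 FPKM and the 2 endothelial markers to between 3.33 and 11.8, and Alb, a liver gene, stayed at or below 0.0782. Ins2, an insulin gene, had 3.36 FPKM at d12 and 0 in adult testis.

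The 9 genes together gave 54.8 FPKM at d12, then 314 at d16, 2541 at d24 and 6248 in the adult library. Their share of all FPKM in a library was 0.0193%, 0.102%, 0.538% and 0.948% in the same order. Odf2 alone made up 78.6% of their sum at d12 and 50.7% in adult testis. Their median FPKM was 0.557 at d12, then 0.634 at d16, 99.6 at d24 and 389 in the adult library. In the adult library all 9 genes had their highest level of the 4 stages, where 7286 of all 23983 genes had theirs. The 23983 include 10389 genes that reached 2 FPKM at no stage, and all 9 genes reached it. The share among expressed genes only was not counted. The 9 genes reached it along separate courses. Fsip1, Ropn1l, Odf2 and Odf4 were above their d12 level at d16 already, and Akap3, Akap4, Ropn1, Odf1 and Odf3 were below 1 FPKM at d12 and d16.

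**Figure D1:**
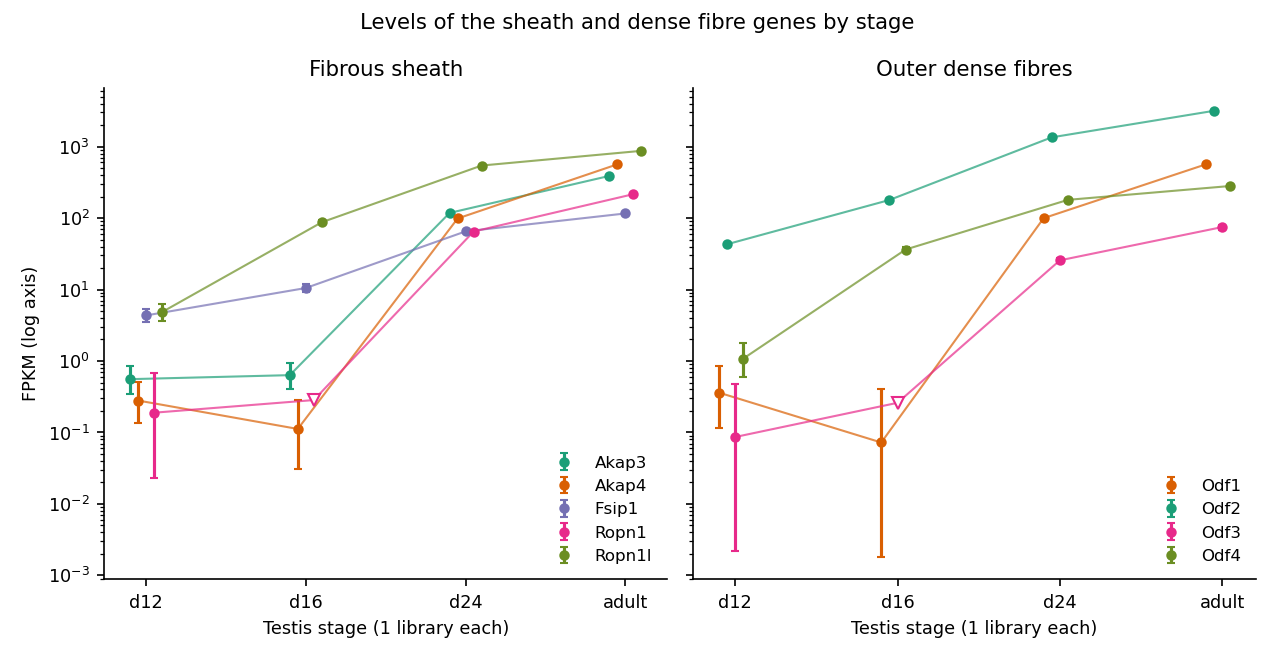
FPKM of the 9 genes on a log axis at the 4 stages, fibrous sheath genes on the left and outer dense fibre genes on the right. Bars are exact 95% counting intervals and open triangles mark the value of 3 fragments for Ropn1 and Odf3, which were listed at 0 at d16. Akap3, Akap4, Ropn1, Odf1 and Odf3 lie below 1 FPKM at d12 and d16 and between 25.6 and 118 FPKM at d24.

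Akap3 and Akap4 encode A-kinase anchoring proteins, the main structural proteins of the fibrous sheath, which bind the regulatory subunits of protein kinase A. Akap3 lies on chromosome 6 (126853098 to 126874308, plus strand) with 1 curated transcript of 3153 nt in 6 exons. Its level was 0.557 FPKM at d12 (0.349 to 0.844, 22 fragments), then 0.634 at d16 (0.410 to 0.936, 25 fragments), 118 at d24 (115 to 120.2, 8147 fragments) and 389 in adult testis (381 to 396, 10930 fragments). The first pair of values overlapped in their counting intervals, and d24 and adult lay far above both. Akap3 was 185 times higher at d24 than at d16 (126 to 287) and 3.31 times higher in adult than at d24 (3.21 to 3.40).

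Akap4, on the X chromosome (7067515 to 7078609, plus strand), has 2 curated transcripts of 2855 and 2859 nt. Its level was 0.280 FPKM at d12 (0.134 to 0.514, 10 fragments), then 0.112 at d16 (0.0305 to 0.287, 4 fragments), 98.6 at d24 (96.2 to 101, 6190 fragments) and 565 in adult testis (555 to 574, 14383 fragments). The d12 and d16 values rested on few fragments, and their ratio of 0.401 had an interval of 0.0917 to 1.39. Akap4 was 879 times higher at d24 than at d16 (344 to 3233) and 5.72 times higher in adult than at d24 (5.56 to 5.90). The order of both genes turned over between the last stages. Akap4 had 0.839 times the FPKM of Akap3 at d24 (0.811 to 0.867) and 1.45 times in adult testis (1.42 to 1.49), intervals that do not overlap.

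The ropporins carry a domain like that by which protein kinase A docks to anchoring proteins, and they bind Akap3 and Akap4 through it. Ropn1 (chromosome 16, 34651211 to 34678610, plus strand, 844 nt) had 0.189 FPKM at d12 (0.0229 to 0.684, 2 fragments), then 0 at d16 (limit 0.284), 64.8 at d24 (61.2 to 68.6, 1202 fragments) and 216 in adult testis (206 to 227, 1629 fragments). It was thus at or near 0 at both early stages. At d24 Ropn1 was at least 228-fold higher than at d16, and in adult testis it was 3.34 times higher than at d24 (3.10 to 3.60).

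Ropn1l, its relative (chromosome 15, 31441210 to 31453689, minus strand, 910 nt), had 4.83 FPKM at d12 (3.64 to 6.28, 55 fragments), then 87.3 at d16 (81.9 to 92.9, 993 fragments), 543 at d24 (533 to 554, 10862 fragments) and 872 in adult testis (852 to 893, 7080 fragments). No pair of these intervals overlapped. Ropn1l was 18.1 times higher at d16 than at d12 (13.8 to 24.2), 6.22 times higher at d24 than at d16 (5.83 to 6.65) and 1.61 times higher in adult than at d24 (1.56 to 1.65). The ropporins differed in level at every stage where both were above 0. Ropn1l had 8.38 times the FPKM of Ropn1 at d24 (7.90 to 8.90) and 4.03 times in adult testis (3.82 to 4.26). Their transcripts aligned over 117 bases at 74.4% identity, and no member had a near copy among the transcripts of other genes.

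Fsip1 encodes a protein that interacts with the fibrous sheath protein Akap4. It lies on chromosome 2 (118130268 to 118256966, minus strand), and the fragments given here use its curated transcript of 1673 nt, the length that gives whole fragments at all 4 stages. Its level was 4.34 FPKM at d12 (3.50 to 5.33, 91 fragments), then 10.5 at d16 (219 fragments), 65.1 at d24 (62.5 to 67.7, 2392 fragments) and 116 in adult testis (111 to 122, 1735 fragments). Each stage lay above the one before it beyond counting error. The ratios were 2.41 from d12 to d16 (1.88 to 3.11), 6.21 from d16 to d24 (5.41 to 7.17) and 1.79 from d24 to adult (1.68 to 1.90). The predicted gene Gm29232 overlaps Fsip1 on the same strand, and fragments of both could not be told apart where they overlap.

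Odf2, a coiled-coil protein of the dense fibres with isoforms that also sit at centrioles, was the most abundant of the 9 genes at every stage. Its level was 43.0 FPKM at d12, then 179 at d16, 1347 at d24 and 3169 in the adult library, rank 11 of all 23983 genes at d24 and rank 7 in adult testis. The gene (chromosome 2, 29889014 to 29931746, plus strand) has 13 curated transcripts of 2249 to 4134 nt, and the FPKM does not separate the tail isoforms from the centriolar ones. With the shortest length as a lower bound, these values rested on at least 1212, 5036, 66532 and 63544 fragments. Odf2 was 4.16 times higher at d16 than at d12 (3.91 to 4.44), 7.52 times higher at d24 than at d16 (7.30 to 7.74) and 2.35 times higher in adult than at d24 (2.33 to 2.38).

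Odf4, a testis protein named for the dense fibres (chromosome 11, 68921835 to 68927081, minus strand, 1110 nt), had 1.08 FPKM at d12 (0.604 to 1.78, 15 fragments), then 36.3 at d16 (33.2 to 39.6, 503 fragments), 179.8 at d24 (175 to 185, 4385 fragments) and 281 in adult testis (271 to 292, 2784 fragments). Its ratio from d12 to d16, 33.6 (20.2 to 60.5), was the highest of the 9 genes, with an interval that overlaps that of Ropn1l. The ratio was 4.96 from d16 to d24 and 1.56 from d24 to adult, the lowest values of the 9 genes at both of these steps.

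Odf1, a cysteine-rich main protein of the dense fibres (chromosome 15, 38219203 to 38226735, plus strand, 1105 nt in 2 exons), had 0.361 FPKM at d12 (0.117 to 0.843, 5 fragments), then 0.0724 at d16 (0.00183 to 0.403, 1 fragment), 99.6 at d24 (95.7 to 104, 2419 fragments) and 565 in adult testis (550.3 to 580.1, 5568 fragments). The early values overlapped in their intervals. The ratio of d24 over d16 was 1376, on 1 fragment at d16, so that its interval ran from 247 to 54386. In adult testis Odf1 was 5.67 times higher than at d24 (5.41 to 5.95). Odf1 and Akap4, on different chromosomes and in different structures, had nearly equal FPKM at the later stages. Their ratio was 1.01 at d24 (0.964 to 1.06) and 1.00 in adult testis (0.970 to 1.03). This pair was not among the ratios planned in advance.

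Odf3, a protein with repeated short motifs that lies along the dense fibres (chromosome 7, 140847916 to 140850925, plus strand, 924 nt), had 0.0864 FPKM at d12 (1 fragment), then 0 at d16 (limit 0.260), 25.6 at d24 (23.4 to 27.9, 519 fragments) and 74.8 in adult testis (69.0 to 80.9, 616 fragments). It was the least abundant of the 9 genes at d24 and in adult testis. Odf3 was at least 98.4-fold higher at d24 than at d16 and 2.92 times higher in adult than at d24 (2.60 to 3.29). The order of the dense fibre genes changed with age. Odf4 had 1.80 times the FPKM of Odf1 at d24 (1.72 to 1.90) and 0.498 times in adult testis (0.475 to 0.521). Odf1 had 3.90 times the FPKM of Odf3 at d24 (3.54 to 4.29) and 7.56 times in adult testis (6.95 to 8.23).

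Set against their own adult level, the 9 genes fell into an order at d24. Odf4 stood at 63.9% of adult, Ropn1l at 62.3%, Fsip1 at 56.0% and Odf2 at 42.5%. These are the 4 genes that were highest as a share of adult at d16 as well, from 5.65% for Odf2 to 12.9% for Odf4. Odf3 stood at 34.2% at d24, Akap3 at 30.3%, Ropn1 at 29.9%, Odf1 at 17.6% and Akap4 at 17.5%. The latter 5 genes had at most 0.163% of adult at d16. All percents of adult depend on the scaling between libraries, which moves all genes by a common factor and leaves their order. With FPKM rescaled to an equal sum, adult over d24 was 1.12 for Odf4 and 1.15 for Ropn1l, against 1.56 and 1.61 as deposited. The intervals of adult over d24 count the error of both libraries. They overlapped between Odf4 and Ropn1l, among Odf3, Akap3 and Ropn1, and between Odf1 and Akap4. Such an overlap does not show that the genes were equal, and differences within these groups were not tested. The median of the 6 pachytene markers at d24 lay above all 9 genes. That of the round spermatid markers (41.1%) lay between Odf2 and Odf3, and that of the elongating spermatid markers (12.6%) below all 9. Single markers were not ordered so clearly. They ran from 40.4% (Pgk2) to 122% (Piwil1) for pachytene and from 33.7% (Tssk1) to 45.2% (Actl7b) for round spermatids. For elongating spermatids they ran from 5.72% (Prm2) to 33.0% (Hils1). Hils1 and Gapdhs (23.4%) lay above Odf1 and Akap4, and Pgk2 below Odf2. The summed FPKM of the elongating spermatid markers was 12.8 at d12, then 4.26 at d16, 2279 at d24 and 25683 in the adult library, with all 6 of 6 higher at d12 than at d16. Akap4, Ropn1, Odf1 and Odf3 had also been listed higher at d12 than at d16, on 10 fragments or fewer. The part of the cell composition in these values was not tested.

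**Figure D2:**
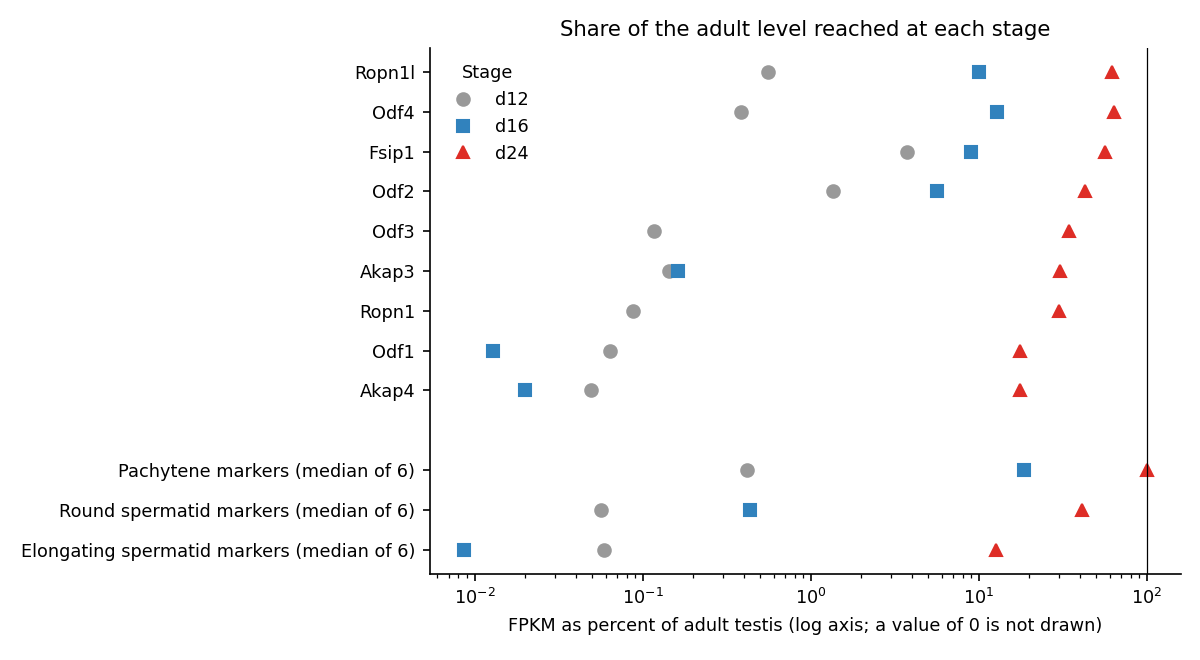
FPKM at d12, d16 and d24 as a percent of the adult level, on a log axis, for the 9 genes and for the medians of 6 markers each of pachytene spermatocytes, round spermatids and elongating spermatids. Values of 0 (Ropn1 and Odf3 at d16) are not drawn, and at d24 the genes spread from 17.5% for Akap4 to 63.9% for Odf4.

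For counts over genes, a change of at least 2-fold was read from log2(FPKM + 0.1) among the 13901 genes whose mean was at least 1 FPKM over the 4 libraries. All 9 genes were among them, 5 of them through their levels at d24 and in adult testis only. From d12 to d16, 4 of the 9 were at least 2-fold higher (Fsip1, Ropn1l, Odf2 and Odf4), where 12.6% of all genes were. Another 2 were at least 2-fold lower (Ropn1 and Odf1, on 2 against 0 and 5 against 1 fragments), where 3.67% of all genes were. With FPKM rescaled to an equal sum in all libraries, 4 were higher and 4 lower, where 11.7% of all genes were higher and 5.78% lower. From d16 to d24, 9 of 9 were higher and 0 lower, where 27.5% of all genes were higher and 8.45% lower. From d24 to adult, 6 of 9 were higher (Akap3, Akap4, Ropn1, Odf1, Odf2 and Odf3) and 0 lower, where 11.4% of all genes were higher and 2.20% lower. The median log2 change of the 9 genes was 0.16, 7.32 and 1.54 at the successive steps, and that of all genes 0.00, 0.13 and -0.02. With Ropn1 and Odf3 at the limit of 3 fragments at d16, the median from d16 to d24 was 6.62. Without these genes, which were at or under the limit at both early stages, the median from d12 to d16 was 1.25.

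The deposited FPKM were not brought to the same sum, and the sum over all genes was 283580 at d12, then 307964 at d16, 472726 at d24 and 659202 in the adult library. Rescaling to the same sum shifted the median log2 change of all genes to -0.11, -0.48 and -0.49. The share of all genes at least 2-fold higher and lower from d16 to d24 was then 19.4% and 30.2%, and from d24 to adult 6.63% and 10.0%. Under this scaling the ratios of the 9 genes from d24 to adult ran from 1.12 to 4.11, with Odf2 under 2-fold. In the 7 genes above 0 at d16, the ratios from d16 to d24 then ran from 3.23 to 897. None of these genes changed direction at either step.

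The pattern of first appearance was read with a limit of 2 FPKM, the one that the study used for its own gene groups. Fsip1, Ropn1l and Odf2 reached it at d12, Odf4 at d16, and Akap3, Akap4, Ropn1, Odf1 and Odf3 at d24. The 5 genes of d24 make up 55.6% of the 9, where 10.8% of the 13901 genes first reached the limit at d24 and 77.2% had reached it at d12. Both structures held genes of both courses, with Akap3, Akap4 and Ropn1 of the fibrous sheath and Odf1 and Odf3 of the dense fibres among the late ones.

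Other genes of the same structures were taken from lists that were chosen with earlier results of these data known. Of 8 other fibrous sheath genes, 4 were at least 2-fold higher and 1 lower from d12 to d16, 7 higher and 0 lower from d16 to d24, and 5 higher and 0 lower from d24 to adult. The members of this list with the highest adult levels were Spa17, Gstm5 and Gapdhs. Spa17, which shares the docking domain of the ropporins, had 40.6, 287, 1512 and 3689.7 FPKM in order of age. Gstm5, a glutathione transferase, had 41.9, 142, 754 and 1518 FPKM. These genes were thus present at d12, like Ropn1l and Odf2. Gapdhs, the glycolytic enzyme of the sheath, had 0.219, 0, 61.0 and 260.0 FPKM, and so was near 0 until d24, like Akap4. It is also among the 6 elongating spermatid markers. The median log2 change of the list was 0.82, 4.36 and 1.15 at the successive steps. From d12 to d16 it was 1.14 with Akap14 left out, which was at or under the limit of 3 fragments in both libraries, and Gapdhs set to the limit at d16. From d16 to d24 it stayed at 4.36 with both set to the limit. Slc25a31, an ADP/ATP carrier, was the exception of the list, with 0.856 times its d16 level at d24.

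Of 7 other genes for dense fibre proteins and their relatives, 6 had a mean of at least 1 FPKM, and Odf3l2 was listed at 0 at all 4 stages. From d12 to d16, 3 of the 6 were at least 2-fold higher, from d16 to d24 5 and from d24 to adult 3, with 0 lower at any step. Their median log2 change was 1.04, 3.25 and 0.99, and from d12 to d16 it was 0.61 with Odf3l1, at 0 in both libraries, left out and Odf3b set to the limit at d12. Tekt4, a tektin, had 0.156, 2.19, 86.2 and 145 FPKM at the successive stages. Spag5, a protein of spindle and dense fibres, had 12.1, 33.4, 79.9 and 82.0 FPKM, and Spag4, which binds Odf1, had 1.17, 0.639, 30.6 and 72.6 FPKM. Spag4 followed the late course of Odf1 and Odf3, while Spag5 was present at d12 and had nearly its adult level at d24.

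The axoneme list had its largest median step earlier, from d12 to d16, as had 9 of its 11 genes counted below, all but Dnaic2 and Rsph9. Of all 13901 genes counted in this way, 4420 had their largest step there. So had 2 of the 9 genes of sheath and dense fibres (Ropn1l and Odf4). The same held for 2 of the 8 other fibrous sheath genes and 2 of the 6 other dense fibre genes. Of the 12 axoneme genes, 11 had a mean of at least 1 FPKM. All 11 were at least 2-fold higher at d16 than at d12 and again at d24 than at d16. From d24 to adult, 0 of these 11 passed 2-fold. Their median log2 change was 4.36, 2.24 and -0.03 at the successive steps, against 0.16, 7.32 and 1.54 for the 9 genes of sheath and dense fibres. By the 2 FPKM limit, 4 axoneme genes appeared at d12, then 6 at d16 and 1 at d24. The difference was not tested with 1 library per stage. Among 13 other genes for A-kinase anchoring proteins, which tether the kinase elsewhere in the cell, 12 had a mean of at least 1 FPKM and 11 had at least 2 FPKM at d12. Of these 12, 0 passed 2-fold from d12 to d16, 4 were higher and 1 lower from d16 to d24, and 2 were higher and 0 lower from d24 to adult. Their median log2 change was -0.31, -0.14 and 0.52, with -0.28 at the first step when Akap14, under the limit at both early stages, was left out. The remaining gene of these 12, Akap14, is on the fibrous sheath list as well, with 0.0446, 0, 13.5 and 24.5 FPKM. Akap3 and Akap4 shared with it the course of a late start.

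**Figure D3:**
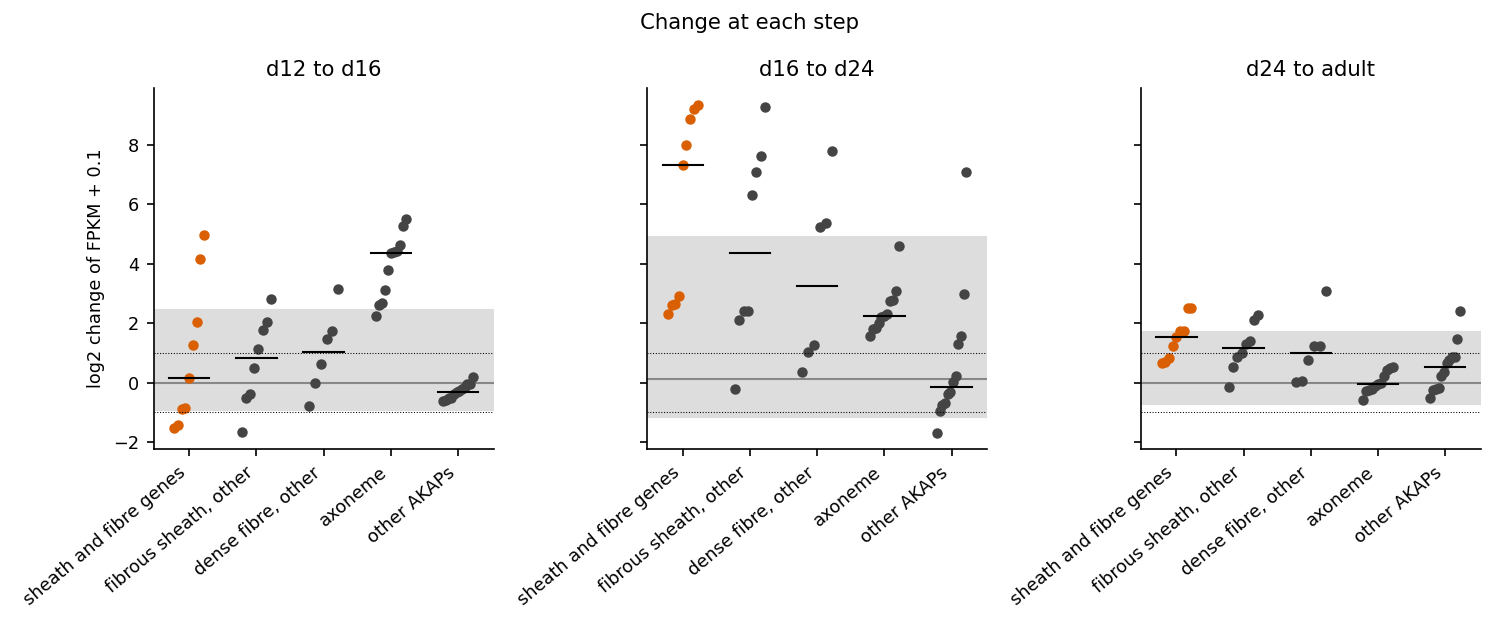
Log2 change of FPKM + 0.1 at each of the 3 steps for the 9 genes and for 4 lists of other genes whose mean was at least 1 FPKM, 1 point per gene with a bar at the median. The grey band spans the 5th to 95th percentile of 13901 genes with their median as a line, and dotted lines mark 2-fold. From d16 to d24, 5 of the 9 genes lie at 7.32 or above.

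**Figure D4:**
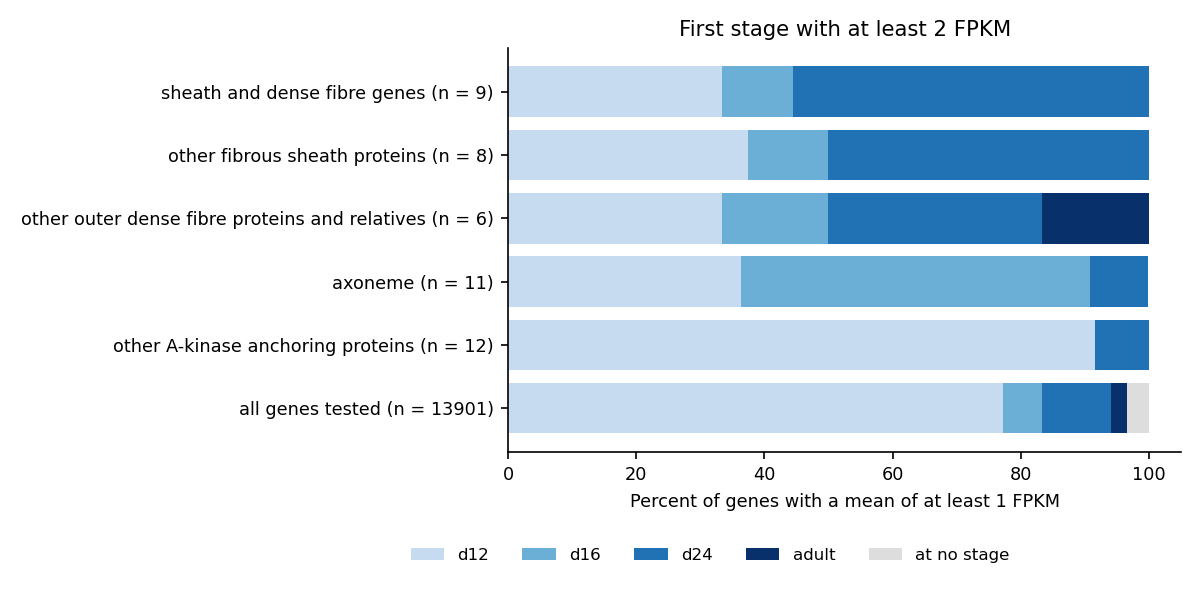
Share of genes, in percent, whose first stage with at least 2 FPKM was d12, d16, d24 or adult, for the 9 sheath and dense fibre genes, the 4 lists and all 13901 genes whose mean was at least 1 FPKM. The d24 segment holds 55.6% of the 9 genes and 9.09% of the 11 axoneme genes.

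The genes with the most similar course over the 4 libraries were found by the distance between log2(FPKM + 0.1) profiles, centred on the mean of each gene, among 8521 genes with at least 10 FPKM in 1 library. Nearest to Akap4 were 1700029H14Rik (distance 0.12, with 0.238, 0.112, 91.2 and 538 FPKM), 1700018C11Rik (0.26) and Odf1 (0.41). Nearest to Odf1 were Spert (0.19, with 0.306, 0.0495, 83.4 and 565 FPKM), 1700018C11Rik (0.25) and Tuba8 (0.31). Akap4 came at rank 4 for Odf1, at the same distance of 0.41, which is equal in both directions by definition. At d12 and d16 these profiles rest on 10 and 4 fragments for Akap4 and on 5 and 1 for Odf1. The counting error of the distances and ranks was not estimated. For Odf2 the nearest were Lrrc9 (0.12, with 2.11, 8.26, 67.6 and 148 FPKM), Adgb (0.30) and Got1l1 (0.31). The nearest of the other members to Odf2 was Fsip1, at a distance of 1.09 and rank 178.

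The windows around the starts, 250 bases before and 50 after, were compared for Akap3, Akap4, Ropn1, Ropn1l, Odf2, Odf3 and Odf4, 7 members with 11 windows in RefSeq, against 32851 windows of 27025 genes. The 20 bases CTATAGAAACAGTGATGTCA, in capitals in the Akap3 and Akap4 windows above, were identical on the same strand in both. They lie at chr6:126853064-126853083, 34 to 15 bases upstream of the Akap3 start, and at chrX:7067468-7067487, 47 to 28 bases upstream of the Akap4 start. This was the longest stretch shared by any of 48 pairs of windows of different members, where the next was 14 bases and the median 9. The stretch occurred in 2 of the 32851 windows, those of Akap3 and Akap4, and in the 22 chromosome sequences of the genome it had 2 exact matches when both strands were searched. Over the transcripts, by comparison, Akap3 and Akap4 aligned over 250 bases at 69.2% identity.

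The last 8 bases of the stretch, TGATGTCA, differ in 1 base from TGACGTCA, the cAMP response element bound by CREB and CREM factors. TGATGTCA was found on either strand in 2 of 7 members, at 2 places in Akap3 and 1 in Akap4, and in 4.18% of all genes with a window. These 8 bases were taken from the stretch that Akap3 and Akap4 share, so a count of at least 2 of 7 was fixed in advance. The count cannot be read against the share of all genes. TGACGTCA was in 0 of 7 members and 2.03% of genes, and its shorter form TGACG in 1 of 7 (Odf2) and 23.0% of genes. GTTGCC, part of the X-box bound by RFX factors, was in 2 of 7 (Ropn1l and Odf3) and 14.1% of genes. TATAAA was in 0 of 7 and 15.7% of genes, and CCAAT in 3 of 7 (Akap3, Akap4 and Odf2) and 41.1% of genes. The Akap3 and Akap4 windows thus shared letters that the other 5 members did not hold. A match describes the sequence and does not show binding.

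The windows also differed in CpG content. The windows of Akap3 and of the upstream start of Akap4 held 0 CpG and that of the downstream start of Akap4 held 1. Ropn1 and Odf3 held 2 each and Odf4 held 3. The observed over expected ratio was 0.00 for Akap3 and the upstream start of Akap4, and 0.06 for the downstream start of Akap4. It was 0.09 for Odf3, 0.15 for Ropn1 and 0.16 for Odf4. All of these lay below the median of 0.38 over all windows. Ropn1l held 22 CpG with a ratio of 0.87, and the 4 starts of Odf2 held 26 to 43 with ratios of 0.81 to 1.04. Ropn1l and Odf2 both had at least 2 FPKM at d12, and Akap3, Akap4, Ropn1 and Odf3 first reached 2 FPKM at d24. Odf4 was low in CpG like Akap3, Akap4, Ropn1 and Odf3, but it first reached 2 FPKM at d16, with 36.3 FPKM. Low CpG and a first appearance at d24 therefore did not go together in all 7 genes. With 7 genes this is a description.

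**Figure D5:**
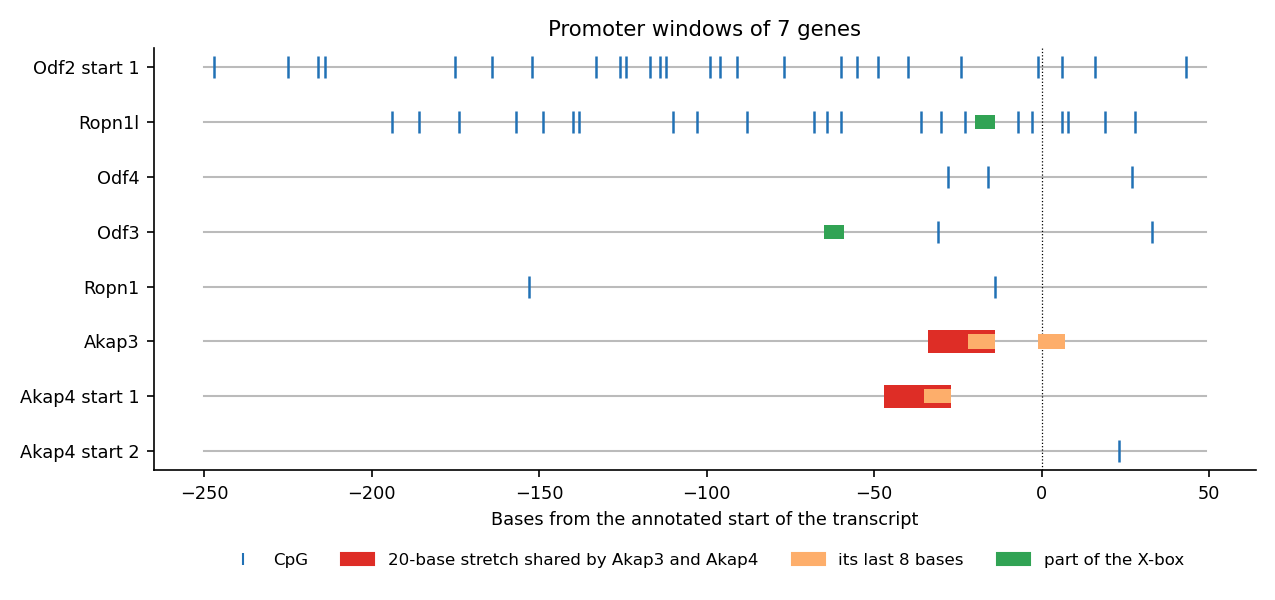
Positions of CpG dinucleotides, of the 20-base stretch common to Akap3 and Akap4, of its last 8 bases and of a part of the X-box in the windows of 7 genes, in bases from the annotated start of the transcript (1 of 4 starts for Odf2). Odf2 and Ropn1l hold 26 and 22 CpG, and the other windows hold 0 to 3.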

How the data were processed

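RNA-seq libraries of testis at d12, d16, d24 and adult (1 each) were used. Strand-specific read pairs had been aligned to the mouse build GRCm38/mm10 (TopHat2 2.1.0 on top of Bowtie 1.1.2) against RefSeq models, and a pair kept 1 alignment. The authors deposited FPKM from Cuffdiff (Cufflinks 2.2.1), which corrected for sequence bias and for multi-mapped reads but used no effective length. The scaling between libraries is not given in the sources used here.

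Fragments were recovered as whole multiples of the FPKM of 1 fragment, found from 15414 genes with 1 curated RefSeq transcript. Of the values up to 20 fragments, 90.0% to 90.8% per library lay within 0.05 of a whole number. The lengths used for Fsip1 and Odf2 were chosen after seeing the data. Near copies were GENCODE transcripts of other genes with at least 95% identity on 80% or more of the query. Intervals are exact Poisson for levels and Clopper-Pearson for ratios, at 95%. Python 3.11.15, numpy 2.4.6, pandas 2.3.3, scipy 1.17.1 and blastn 2.17.0 were used, and the recovery was tested on simulated data.

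The members and lists were chosen with earlier results of these data known. Named beside the members were the 3 genes of highest adult FPKM in each list of other tail genes, any gene of them at least 2-fold lower in adult than at d24 (there was none), and the 3 nearest profiles of Akap4, Odf1 and Odf2. Slc25a31, Odf3l2 and Akap14 were named after their values were seen. Adgre1, a leukocyte marker, is listed under its older symbol Emr1. Alternatives were other scalings, division by Gapdh, a pseudocount of 1, other filters and other limits.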

Additional observations from a re-analysis of the deposited data

How the results depend on the processing

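Of 175 alternative values for 65 results, 115 stayed within the limits set for them, 60 moved beyond and 0 changed direction. Some of the 115 could not have moved. Ratios between members taken from fragments per kb repeat the FPKM ratios up to rounding, since the fragments were recovered from FPKM. The ratios of Ropn1 and Odf3 from d12 to d16 stay at 0 under any scaling. For counts and shares a change of direction was not among the possible outcomes. The number of the 9 genes at least 2-fold lower at d16 than at d12, which was 2, became 4 with FPKM rescaled to an equal sum in all libraries. It became 0 with a pseudocount of 1 FPKM, 0 with a limit of 4-fold, and 0 when only genes with known fragments and an interval clear of 1 were counted. With a limit of 4-fold, the number higher in adult than at d24 went from 6 to 2 (Akap4 and Odf1). The number that first reached the FPKM limit at d12 went from 3 to 1 with a limit of 5 FPKM. The number that first reached it at d16 went from 1 to 0 with a limit of 1 FPKM and to 3 with 5 FPKM. The 5 genes that first reached it at d24 were 5 under both limits. Scaling of the shares over all genes, the medians with genes at the limit of 3 fragments and the lengths for Fsip1 and Odf2 were added after seeing the data. No paired analysis was possible because each stage has 1 library. Depth limits the early values of Akap3, Akap4, Ropn1, Odf1 and Odf3, which rest on 0 to 25 fragments.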

Other observations

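Of the 13 other genes for A-kinase anchoring proteins, 8 had their highest level in adult testis, where 7286 of all 23983 genes had theirs. The 23983 include 10389 genes that reached 2 FPKM at no stage. Akap1 and Akap12 were the 2 of these 13 that were at least 2-fold higher in adult testis than at d24. Akap1, which tethers the kinase to mitochondria, had 7.85 FPKM at d12, then 5.96 at d16, 48.0 at d24 and 258 in the adult library. Its adult level was 5.37 times that at d24, where Akap4 was 5.72 times higher. Akap12, a scaffold at the plasma membrane, had 137, 116, 347 and 972 FPKM at the same stages. These genes were chosen after their values were seen. Odf3b, a relative of Odf3, reached 2 FPKM in adult testis only, with 0, 0.231, 0.569 and 5.50 FPKM.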
